A study of Mus musculus with 48 samples.

Results

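The gene desert regions were the autosomal regions of captured DNA that lay more than 50 kb from the body of any annotated gene, whatever the type of the gene. They were found by measuring the distance from each counted region to the nearest gene of the mm10 RefSeq table, with protein-coding genes, long non-coding RNAs (lncRNAs), small RNAs and pseudogenes all counted as genes. Of 95882 regions in the series, 3954 (4.12%) met this rule, and the other 90581 autosomal regions lay in a gene or within 50 kb of one. All 3954 are intergenic, so no member lies in an exon, an intron or an untranslated region. The rule used positions only and no measured value.

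The assay enriched methylated fragments on a methyl-CpG-binding domain (the MethylMiner kit), starting from the intestine of 7 GermFree mice and 5 ConvR mice, which the design text calls conventionalized. GermFree mice are raised without microbes, and conventionalized mice are germ-free animals that have received a microbiota. The colon, ileum, jejunum and duodenum of every mouse were sequenced as 1 library each, so that 48 libraries came from 12 animals. The labels used here give no strain, age or sex, and the tissue is whole intestine, so the cell types behind a value are not known and a change in cell makeup cannot be told apart from a change in methylation within cells.

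Most CpG sites of mammalian genomes outside CpG islands and active regulatory elements are methylated, and DNA far from genes is mostly methylated as well. Gene deserts are not evenly empty. Some hold long-range enhancers of developmental genes, others hold little but transposon remnants, and the DNA next to the centromeres consists of satellite repeats. Capture by a methyl-CpG-binding domain reports the amount of methylated DNA in a region, which rises with the number of CpG sites, with their methylation and with the number of copies of the sequence.

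Library totals ran between 1007560 and 3033782 counts, with a median of 2122529. The median desert region held 6 to 18 counts in a library and 30 to 60 counts in the sum of a mouse's 4 libraries, so that most single regions were measured with limited precision. Levels are given in CPM, the counts of a region relative to the library's total over the regions kept by the count filter of the same fit, scaled with TMM factors. Single sections, sums and the section comparisons were filtered and scaled separately. ConvR mice 1 and 3 and GermFree mouse 2 had the lowest totals over their sections, at 5379564, 6961367 and 7002133 counts, whereas the other mice had between 7967473 and 10537749. All region names in the deposited list carry the GermFree label. The pooling of libraries for peak calling is not stated in the sources used here, and whether the list misses regions rich in capture in ConvR mice was not tested.

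Desert regions were narrower than the rest and held more captured DNA per length. Their median width was 778 bp, against 1229 bp for the other autosomal regions, and 54 of them (1.37%) were at least 5 kb wide, against 5.28% of the others. Their median level was 5.61 CPM over the 12 mouse sums, against 7.38 CPM in the others. Per length the order was the opposite, with a median of 7.26 CPM per kb in desert regions and 6.17 CPM per kb in the other regions. Levels per kb were not compared between regions of equal width, so the part of width in this difference was not tested. The authors' peak score, their own value per region, had a median of 10 in both sets.

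Both features varied with the distance to a gene. Regions that overlapped a gene had a median width of 1340 bp and a median level of 6.0 CPM per kb. Those up to 5 kb from a gene already had 964 bp and 6.74 CPM per kb, and those at 5 to 20 kb had 969 bp and 6.75 CPM per kb. At 20 to 50 kb from a gene, outside the rule, the 6257 regions had a median width of 917 bp and 6.86 CPM per kb. At 50 to 100 kb, the 2623 regions had a median width of 850 bp and 7.02 CPM per kb. At 100 to 200 kb, the 1020 regions had 691.5 bp and 7.58 CPM per kb, and the 298 regions at 200 to 500 kb had 706.5 bp and 7.51 CPM per kb. The 13 regions over 500 kb away were wider again, with 1042 bp and 7.43 CPM per kb. The medians on both sides of the 50 kb limit were thus close to each other. The members nearest to the limit lay 50006, 50033 and 50033 bp from a gene (10.2, 4.89 and 3.86 CPM), and the nearest regions outside the rule lay 49996, 49992 and 49979 bp away (5.21, 5.90 and 7.68 CPM).

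**Figure D1:**
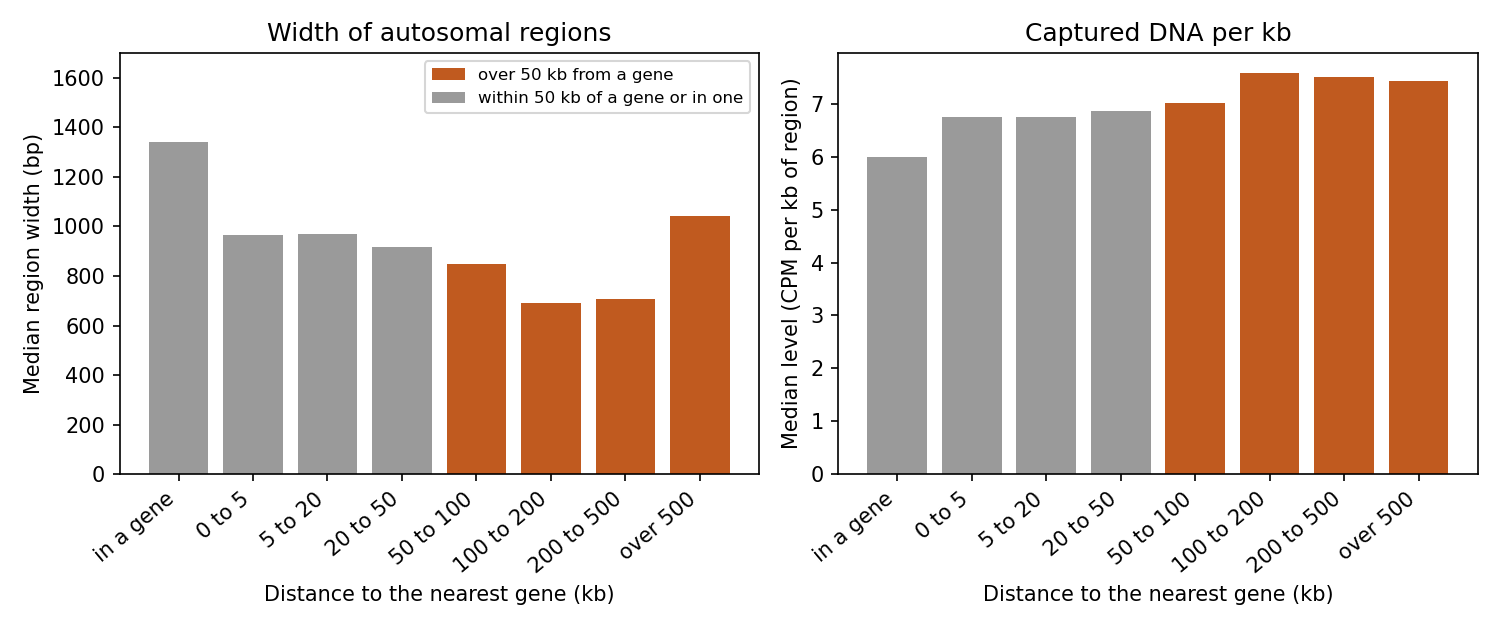
Median width in bp (left) and median level in CPM per kb of region (right) of autosomal regions by distance to the nearest gene in kb, with bars in orange for regions over 50 kb away and in grey for the rest. Width was 1340 bp in genes and 691.5 bp at 100 to 200 kb, and the level per kb was 6.0 in genes and 7.58 at 100 to 200 kb.

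The median desert region lay 80.6 kb from its nearest gene and 187 kb from its nearest protein-coding gene. A total of 1331 lay over 100 kb from any gene, 311 over 200 kb and 13 over 500 kb, and 573 lay over 500 kb from a protein-coding gene. The nearest gene was an lncRNA for 1676 members (42.4%), a pseudogene for 1075 (27.2%) and a protein-coding gene for 791. Small nucleolar RNA genes were nearest to 207 members and small nuclear RNA genes to 130. The farthest member was a region of 1042 bp on chromosome 14 (mm10, 82740688 to 82741729), 618 kb from the pseudogene Gm19050 and 1702 kb from Pcdh17, a protocadherin gene, with 6.25 CPM. The next 4 lay side by side on chromosome 15 between 15049772 and 15083777, at 583 to 614 kb from the pseudogene Gm9630 in a desert between the cadherin genes Cdh6 and Cdh9, with 5.98 to 14.8 CPM.

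Chromosomes differed in how many of their regions were desert regions, with 2.3% of regions on chromosome 7 and 6.45% on chromosome 18. Chromosome 8 held the most members, 339 of its 5683 regions (5.97%). When every gene body with 50 kb on both sides was removed from the autosomes, 2845 stretches were left, of which 1438 held a desert region. In 596 of these stretches there was 1 member, and 45 stretches with at least 10 members held 584 of the 3954. The stretch with the most members, 27, lay on chromosome 8 between 107884338 and 108229310, between the proteasome subunit gene Psmd7 and Zfhx3, a large homeobox transcription factor gene. Another stretch of chromosome 8 (8805165 to 9075411), between Arglu1 and Fam155a, held 26 members.

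In the most crowded stretches the differences between the mouse models were small. In the 27 members between Psmd7 and Zfhx3, the log2 difference of GermFree minus ConvR in the mouse sums ran from -0.26 to 0.22 with a median of 0.01, and 15 members were above 0. In the 26 members between Arglu1 and Fam155a it ran from -0.29 to 0.18 with a median of -0.02. No member of either stretch passed the test between the models, between colon and duodenum or between colon and ileum.

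A few desert regions held far more captured DNA than the rest. The region with the highest level lay on chromosome 12 between 3109459 and 3110475, 1017 bp close to the assembled start of the chromosome, 54.2 kb from the pseudogene Gm48310 and 137 kb from Rab10, which encodes a GTPase of vesicle transport. It averaged 239 ± 24.8 CPM in GermFree mice and 259 ± 68.4 CPM in ConvR mice (SD, n = 7 and 5), which is 244 CPM per kb over all mice. By section its mean was 259 ± 41.6 CPM in colon, 261 ± 94.0 CPM in ileum, 244 ± 44.9 CPM in jejunum and 251 ± 65.0 CPM in duodenum (SD, n = 12 each). No difference passed there by edgeR's quasi-likelihood test, with log2 differences of -0.11 between GermFree and ConvR mice (adjusted p = 0.907) and 0.05 for colon minus duodenum (adjusted p = 0.900).

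The region with the second-highest level lay near the start of chromosome 16 (3240016 to 3249850), 51.6 kb from the pseudogene Gm3749 and 343 kb from the odorant receptor gene Olfr161. It had 192 ± 32.4 CPM in colon, against 150 ± 31.6 CPM in ileum, 156 ± 17.6 CPM in jejunum and 145 ± 32.7 CPM in duodenum. Its log2 difference was 0.40 for colon minus duodenum (adjusted p = 0.013) and 0.33 for colon minus ileum (adjusted p = 0.0294, edgeR). A region of chromosome 3 (5860025 to 5861097), 281 kb from the peroxisome biogenesis gene Pex2, had 65.7 ± 8.05 CPM in GermFree mice and 80.3 ± 14.4 CPM in ConvR mice, with a log2 difference of -0.28 that did not pass (adjusted p = 0.218, edgeR).

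A level of at least 10 CPM per kb was reached by 27 desert regions (0.683%), and by 443 other autosomal regions (0.489%). Their median width was 801 bp and their median score 1250. Of the 27, 5 lay in the first 5 Mb of a chromosome, next to the centromere in mouse, as did 38 of the 443 dense regions outside deserts and 59 of all 3954 desert regions (1.49%). The counting of multiply mapped reads is not stated in the sources used here, and the part of repeated DNA in these levels was not tested. In the mouse sums 12 of the 27 were below 0 for GermFree minus ConvR, with a median log2 difference of 0.01, and 17 were above 0 for colon minus duodenum, with a median of 0.06.

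The part of a library that fell into gene deserts was almost constant. Desert regions took 3.08% to 3.23% of the autosomal counts over the 48 libraries, and they make up 2.96% of the autosomal length that the regions cover. In colon the share was 3.18% ± 0.0240 in GermFree mice and 3.18% ± 0.0463 in ConvR mice (SD, n = 7 and 5). In ileum it was 3.16% ± 0.0379 in GermFree mice and 3.13% ± 0.0265 in ConvR mice, in jejunum 3.16% ± 0.0234 and 3.15% ± 0.0199 in GermFree and ConvR mice, and in duodenum 3.16% ± 0.0327 and 3.14% ± 0.0382 in GermFree and ConvR mice. The differences between the models were therefore at most about the SD between mice. The share of the colon was above that of the duodenum in 11 of 12 mice, above that of the jejunum in 10 and above that of the ileum in 9.

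The first comparison asked where deserts differed between GermFree and ConvR mice, with the mouse as the replicate and the counts of its 4 sections summed. Few desert regions did. By edgeR's quasi-likelihood test, with p-values adjusted over all 95882 regions and a threshold of 0.05, 9 of 3954 passed (0.228%), where 0.475% of all regions passed. Of the 9, 6 were higher and 3 lower in GermFree mice, whereas among all regions 0.431% were higher and 0.0438% lower. An unadjusted p under 0.05 was found for 270 desert regions (6.83%), close to the 6.63% of all regions. The median log2 difference was 0.01 in desert regions and 0.00 in all regions. Without ConvR mice 1 and 3, 6 desert regions passed, of which 4 were among the 9, and DESeq2 called 4 of the 9 and no others. Leaving out ConvR mouse 3 alone left 4 calls and leaving out GermFree mouse 7 left 5. The share of all regions passing was not computed for these alternatives.

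Of the 6 regions with more captured DNA in GermFree mice, 3 separated the models most clearly, and these 3 passed in each of the 21 alternatives in which they were tested. The first lay on chromosome 3 (78329496 to 78331929), 74.2 kb from the lncRNA gene Gm36288 and 731 kb from Rapgef2, which encodes an exchange factor for Rap GTPases. GermFree mice had 17.8 CPM at the lowest, 20.9 at the median and 25.04 at the highest, against 13.48, 14.9, 11.9, 14.8 and 14.2 CPM in ConvR mice 1 to 5. The log2 difference was 0.58 ± 0.0829 (SE, adjusted p = 3.73e-06, edgeR). All 7 GermFree mice lay above all 5 ConvR mice. The only other member of this stretch was at 0.39 and did not pass.

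The second lay on chromosome 6 (133406467 to 133407384), 94.3 kb from Gm34149 and 111 kb from 5530400C23Rik, and was alone in its stretch. GermFree mice had a lowest value of 7.37 CPM, a median of 8.29 and a highest value of 9.76, against 5.05, 5.49, 6.78, 5.22 and 3.96 CPM in ConvR mice 1 to 5. The log2 difference was 0.67 ± 0.123 (SE, adjusted p = 0.0006, edgeR), again with all 7 GermFree mice above the ConvR mice. Section by section the log2 difference was 0.67 in colon, 0.51 in ileum, 0.90 in jejunum and 0.60 in duodenum, and it passed in no single section (lowest adjusted p = 0.0799, edgeR).

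The third lay on chromosome 2 (50992687 to 50993441), 70.1 kb from Gm39811 and 137 kb from Rnd3. Values in GermFree mice were 4.99 CPM at the lowest, 8.12 at the median and 11.7 at the highest, against 4.87, 4.83, 4.09, 5.22 and 5.68 CPM in ConvR mice 1 to 5. The log2 difference was 0.76 ± 0.149 (SE, adjusted p = 0.00172, edgeR). The ConvR mice lay close together, while the GermFree mice were spread out and 6 of 7 exceeded every ConvR mouse. The 3 members of this stretch ran from -0.12 to 0.76 in log2 difference, and the other 2 did not pass.

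**Figure D2:**
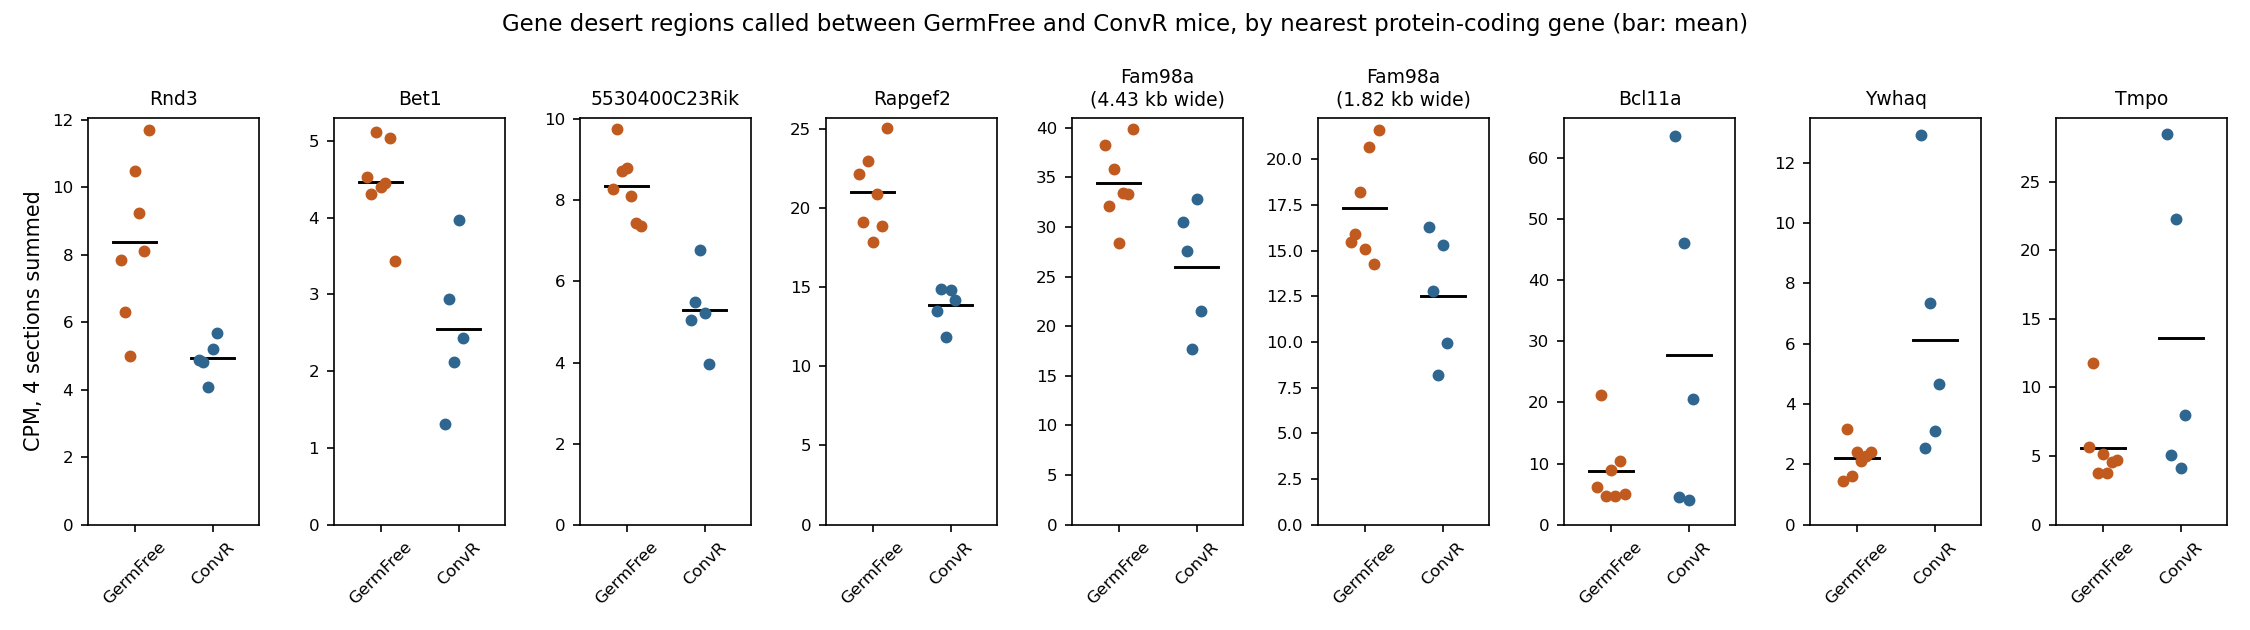
CPM of each mouse, 4 sections summed, at the 9 desert regions called between GermFree (orange, left, 7 mice) and ConvR (blue, right, 5 mice) mice, with a line at the mean and each panel named by the nearest protein-coding gene. The GermFree mice all lie above the ConvR mice near Rapgef2 and 5530400C23Rik, and a few ConvR mice stand far above the rest near Bcl11a, Ywhaq and Tmpo.

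A narrower region of chromosome 6 (4263082 to 4263500), 95.5 kb from the pseudogene Gm8602 and 176 kb from Bet1, which encodes a SNARE protein of transport between endoplasmic reticulum and Golgi, also passed. GermFree mice had 3.43 CPM at the lowest, 4.45 at the median and 5.11 at the highest, against 1.31, 2.93, 2.12, 3.98 and 2.44 CPM in ConvR mice 1 to 5. The log2 difference was 0.75 ± 0.169 (SE, adjusted p = 0.0151, edgeR), and 6 of the 7 GermFree mice exceeded every ConvR mouse. The call was lost when ConvR mouse 1, 3 or 5 was left out (adjusted p = 0.0805, 0.0730 and 0.0797, edgeR). The other 3 members of its stretch did not pass.

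The remaining calls of this kind lay in 1 stretch of chromosome 17 (75756392 to 75811022), 54.63 kb of desert between Fam98a and Crim1, which encodes a transmembrane regulator of bone morphogenetic proteins. It was the second-richest stretch in captured DNA of all, with 270 CPM summed over its members, and its 5 regions covered 39.7 kb of it. They included 3 of the 5 widest desert regions, at 13223, 10352 and 9912 bp. In the mouse sums all 5 were higher in GermFree mice, with log2 differences of 0.31, 0.41, 0.31, 0.31 and 0.49 in the order of their positions. The regions from 75777388 to 75781818 and from 75808640 to 75810461 passed (adjusted p = 0.0128 and 0.0154, edgeR), and the others did not (adjusted p = 0.313, 0.169 and 0.241). Such neighbours within a few kb of each other are not independent observations.

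At the region from 75777388 to 75781818, GermFree mice had 28.4 CPM at the lowest, 33.5 at the median and 39.9 at the highest, against 30.5, 27.5, 17.7, 32.8 and 21.5 CPM in ConvR mice 1 to 5. At the widest region of the stretch, from 75761638 to 75774860, GermFree mice had a lowest value of 78.2 CPM and a highest of 100.3, against 95.7, 69.6, 51.7, 95.03 and 58.7 CPM in ConvR mice 1 to 5. In both, ConvR mice 3 and 5 lay lowest, whereas ConvR mice 1 and 4 lay within the range of the GermFree mice. Leaving out ConvR mouse 3 or 5, or GermFree mouse 1 or 7, ended the call of the region from 75777388 (adjusted p = 0.104, 0.163, 0.0569 and 0.0554), and leaving out ConvR mouse 3 or 5, or GermFree mouse 5 or 7, did the same for the region from 75808640 (adjusted p = 0.114, 0.179, 0.0877 and 0.0731, edgeR).

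Section by section, the differences were all above 0. In duodenum the 5 log2 differences ran from 0.40 to 0.61, and the regions starting at 75777388 and 75796287 passed (0.61 and 0.55, adjusted p = 0.0125 and 0.0130, edgeR). In colon they ran from 0.29 to 0.57, in ileum from 0.28 to 0.69, and in jejunum from 0.08 to 0.18, with none passing in these sections. The call from 75777388 was lost without ConvR mouse 5 or GermFree mouse 1 or 7 (adjusted p = 0.320, 0.0650 and 0.0684), and that from 75796287 without ConvR mouse 3 or 5 (adjusted p = 0.162 and 0.0632, edgeR). Whether the difference between the models varied by section was tested jointly for all regions, and no region of this stretch passed that test.

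**Figure D3:**
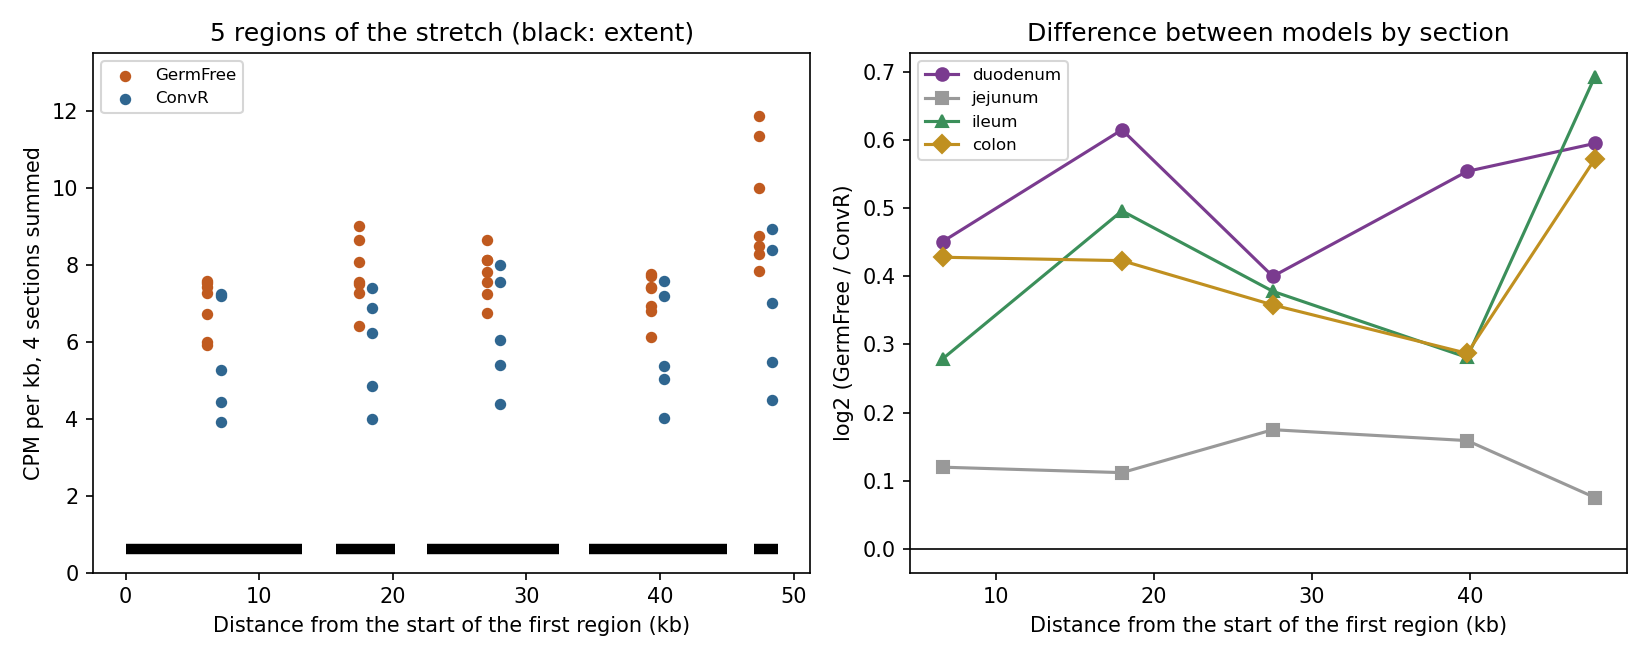
The 5 desert regions of the stretch between Fam98a and Crim1 by distance in kb from the start of the first, with CPM per kb of each GermFree (orange) and ConvR (blue) mouse, 4 sections summed (left; black bars mark the extent of each region), and the log2 difference of GermFree over ConvR in each section (right). All 5 regions are above 0 in all 4 sections, and the jejunum is lowest, with values between 0.08 and 0.18.

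The 3 regions with less captured DNA in GermFree mice showed another pattern, in which a few ConvR mice were very high. On chromosome 11 (25099788 to 25100588), 138 kb from Gm24255 and 926 kb from Bcl11a, which encodes a zinc finger repressor of fetal globin genes, GermFree mice had 4.67 CPM at the lowest, 6.19 at the median and 21.2 at the highest. ConvR mice 1 to 5 had 63.6, 4.45, 46.0, 4.10 and 20.6 CPM. The log2 difference of -1.53 ± 0.358 (SE, adjusted p = 0.0218, edgeR) thus joined groups that overlapped, since ConvR mice 2 and 4 lay below every GermFree mouse.

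On chromosome 12 (21478392 to 21478806), 61.0 kb from Ywhaq, which encodes a 14-3-3 protein, GermFree mice had 1.44 CPM at the lowest, 2.29 at the median and 3.16 at the highest, against 12.9, 2.56, 7.34, 3.11 and 4.67 CPM in ConvR mice 1 to 5. Its log2 difference was -1.32 ± 0.251 (SE, adjusted p = 0.00114, edgeR), with 6 of the 7 GermFree mice under every ConvR mouse. On chromosome 10 (91695324 to 91696077), 193 kb from Gm31592 and 514 kb from Tmpo, which encodes lamina-associated proteins of the nucleus, GermFree mice had 3.74 CPM at the lowest, 4.70 at the median and 11.8 at the highest, against 28.5, 5.11, 22.3, 4.10 and 8.02 CPM in ConvR mice 1 to 5. Its log2 difference was -1.14 ± 0.283 (SE, adjusted p = 0.0456, edgeR). In all 3 regions ConvR mice 1 and 3 were the highest of the 12.

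These calls rested on those mice. Without ConvR mice 1 and 3 together, the log2 differences were -0.22, -0.66 and -0.09 near Bcl11a, Ywhaq and Tmpo, and none passed (adjusted p = 0.993, 0.392 and 0.997, edgeR). Without ConvR mouse 1 alone the differences near Bcl11a and Tmpo were -1.05 and -0.76 (adjusted p = 0.356 and 0.432), and without ConvR mouse 3 alone -1.19 and -0.83 (adjusted p = 0.242 and 0.499). The region near Bcl11a also lost its call without GermFree mouse 1, 3, 5 or 7 (adjusted p = 0.0576 to 0.0997), and that near Tmpo without any GermFree mouse other than mouse 2 (adjusted p = 0.0593 to 0.172). The region near Ywhaq passed whichever single mouse was left out.

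The same 3 were among the 5 desert regions with the largest spread between mice, with SDs of 1.33, 0.94 and 0.80 in log2 CPM near Bcl11a, Tmpo and Ywhaq, where the median desert region had 0.20 and the 95th percentile was 0.31. The other 2 lay 528 kb from Intu, a planar polarity gene of cilium formation (chromosome 3, 40002649 to 40003441, SD 1.04), and 75.4 kb from Gpam, the gene of a mitochondrial glycerol-3-phosphate acyltransferase (chromosome 19, 54991850 to 54992288, SD 0.55). Near Intu, GermFree mice 1 to 7 had 5.31, 11.2, 6.36, 7.02, 4.56, 6.98 and 5.72 CPM, against 42.5, 3.88, 29.2, 4.22 and 9.74 CPM in ConvR mice 1 to 5. Near Gpam, GermFree mice ran from 2.29 to 4.45 CPM, against 9.73, 2.75, 6.78, 4.22 and 3.35 CPM in ConvR mice 1 to 5. ConvR mice 1 and 3 were the highest pair in each of the 5 regions, and GermFree mouse 2 was the highest GermFree mouse in each.

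Depth went with this pattern only in part. ConvR mouse 1, ConvR mouse 3 and GermFree mouse 2 had the 3 lowest totals of all mice, although the values are scaled to the total. ConvR mouse 5 had the second-highest total, 9699509 counts, but had 20.6 CPM near Bcl11a. Its 4.67 CPM near Ywhaq lay above every GermFree mouse, whereas near Bcl11a, Tmpo, Intu and Gpam it lay below GermFree mouse 2. The part of depth in the pattern was not tested. Over all 3954 desert regions ConvR mice 1 and 3 were the highest pair in 79 (2.0%), and over the other autosomal regions in 2530 (2.79%). Among regions of at least 10 CPM per kb they were the highest pair in 6 of 27 desert regions (22.2%) and in 43 of 443 others (9.71%). The regions near Bcl11a, Intu and Tmpo are among these 27. That level is a mean over all mice, ConvR mice 1 and 3 included. Near Bcl11a the large values of ConvR mouse 1 recurred across sections. This mouse had 33.9 CPM in colon, 109 in ileum, 45.3 in jejunum and 107 in duodenum. ConvR mouse 4 had 7.20, 3.49, 5.24 and 2.55 CPM in the same sections. In colon ConvR mice 1 and 3 were not the highest pair near Tmpo and Ywhaq. Near Tmpo, the colon of ConvR mouse 1 was still the highest, with 12.45 CPM. That of ConvR mouse 3 had 6.985 CPM, below GermFree mice 4, 1 and 2 with 12.04, 10.09 and 7.85 CPM. Near Ywhaq, the colon of ConvR mouse 1 had 4.149 CPM, below GermFree mouse 3 with 4.38 CPM, and ConvR mouse 3 lay lower still.

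**Figure D4:**
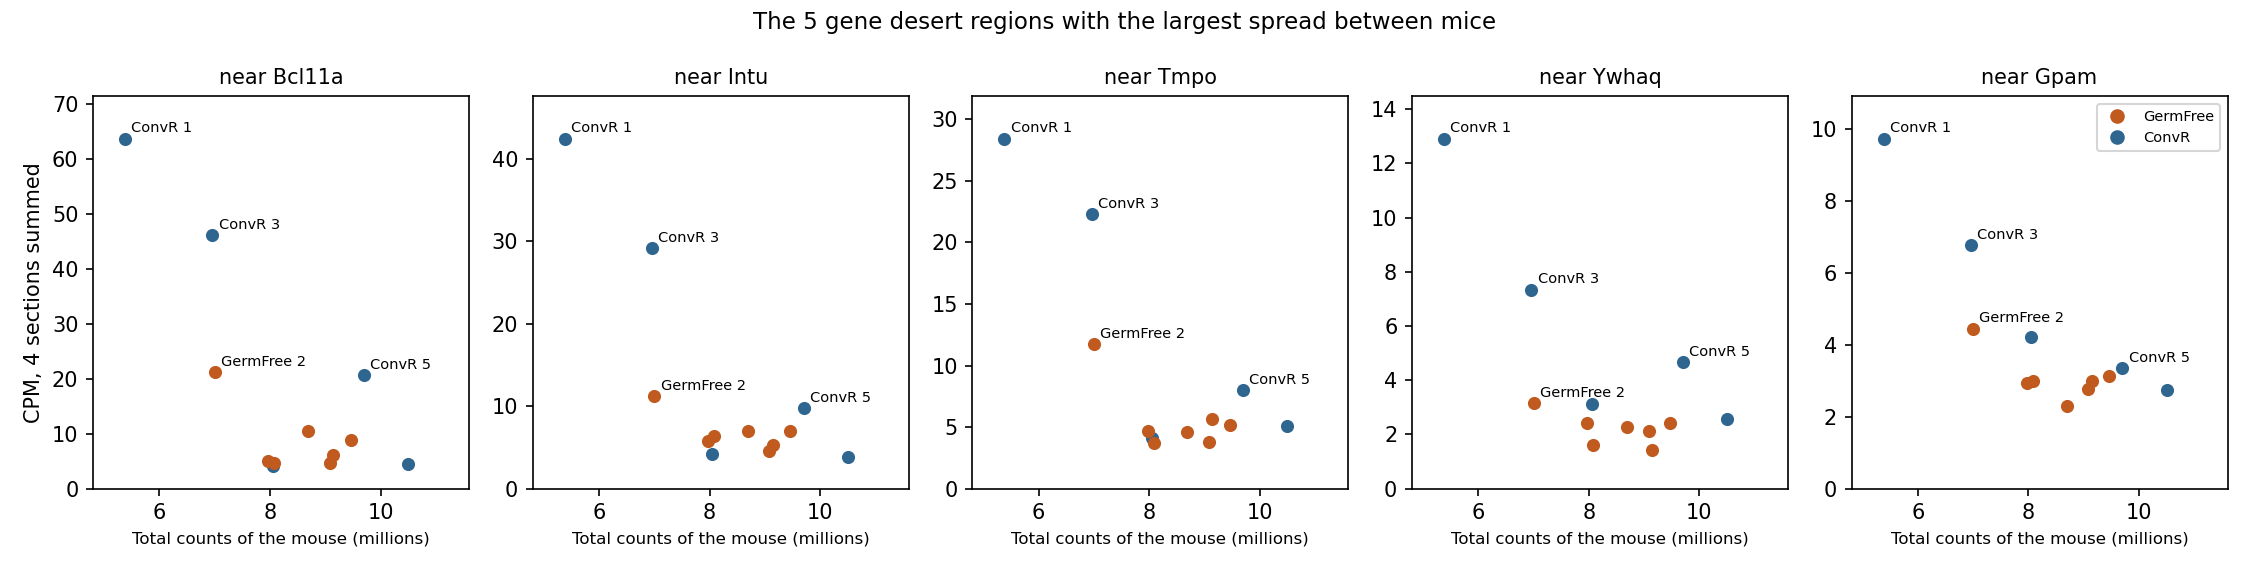
CPM, 4 sections summed, of each GermFree (orange) and ConvR (blue) mouse against the mouse's total count, for the 5 desert regions with the largest spread between mice. ConvR mice 1 and 3, with 5379564 and 6961367 counts, are the highest in all 5 panels, and GermFree mouse 2, with 7002133, is the highest GermFree mouse.

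Within single sections, where fewer desert regions passed the count filter, the calls were as sparse. In colon 3 of 2704 passed, 2 higher and 1 lower in GermFree mice (0.542% of all regions passed, 0.513% higher and 0.0283% lower). In ileum 3 of 3311 passed, all lower (0.365% of all regions, 0.0491% lower). In jejunum 2 of 3117 passed, both lower (0.343% of all regions, 0.304% higher and 0.0391% lower), and in duodenum 6 of 2732 passed, 3 higher and 3 lower (0.463% of all regions, 0.423% higher and 0.0398% lower). DESeq2 called 1 of the colon regions and 0 in ileum, jejunum and duodenum, where edgeR gave an unadjusted p under 0.05 for 140, 168 and 179 desert regions. These were 4.23%, 5.39% and 6.55% of those tested, against 5.12%, 5.36% and 6.99% of all regions in the same sections. Single mice moved these counts, which in colon were 7, 9 and 5 without ConvR mouse 2, 4 and 5 and 7 without GermFree mouse 6, and in ileum 5 without ConvR mouse 1 and 9 without GermFree mouse 4. In jejunum 1 region passed without GermFree mouse 5, 6 or 7, and in duodenum 10 without ConvR mouse 2 or GermFree mouse 6, 2 without ConvR mouse 3 and 3 without GermFree mouse 1, 3 or 4. Without ConvR mice 1 and 3 none of the calls of single sections remained, and 2 other desert regions passed in jejunum and 1 in duodenum. No share of all regions was computed for the fits without these mice, so the changes cannot be called particular to deserts.

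The regions near Bcl11a, Tmpo and Rapgef2 were called in more than 1 section. Near Bcl11a the log2 difference was -1.11 in colon (adjusted p = 0.00198), -2.08 in ileum (adjusted p = 0.000286) and -1.54 in jejunum (adjusted p = 3.03e-07), and in duodenum it was -1.32 and did not pass (adjusted p = 0.121, edgeR). In jejunum ConvR mice 1 to 5 had 45.3, 7.04, 43.7, 5.24 and 13.4 CPM there, against 3.51 to 21.3 CPM in GermFree mice. The groups overlapped, and the p-values rest on an estimate of spread shared in part across regions. Near Tmpo the log2 difference was -1.58 in ileum and -1.48 in duodenum (adjusted p = 0.00227 and 0.0317), and -0.95 in jejunum and -0.11 in colon did not pass (adjusted p = 0.113 and 0.962, edgeR). Near Rapgef2 it was 0.59 in colon and 0.73 in duodenum (adjusted p = 0.0146 and 0.00973), and 0.57 in ileum and 0.42 in jejunum did not pass (adjusted p = 0.108 and 0.613, edgeR). The section calls near Rapgef2 were lost in colon without ConvR mouse 3 or GermFree mouse 4 or 7 (adjusted p = 0.270, 0.0578 and 0.130) and in duodenum without ConvR mouse 1 or GermFree mouse 7 (adjusted p = 0.0542 and 0.0549, edgeR). The colon call near Bcl11a was lost without ConvR mouse 1 (adjusted p = 0.219), and the calls near Tmpo without ConvR mouse 1 or 3 in ileum (adjusted p = 0.0772 and 0.0638) and without any of 7 single mice in duodenum (ConvR mouse 1 or 3, GermFree mouse 1, 3, 4, 5 or 7, adjusted p = 0.0518 to 0.511, edgeR). Over the alternatives tried, the difference near Rapgef2 ran from 0.43 to 0.66 in colon and from 0.59 to 0.80 in duodenum. Without both ConvR mice 1 and 3, the values near Bcl11a were -0.49 in colon, -0.58 in ileum and -0.31 in jejunum, and those near Tmpo -0.51 in ileum and -0.01 in duodenum. In colon all 7 GermFree mice again lay above the ConvR mice near Rapgef2, at 23.2 CPM at the lowest and 37.4 at the highest, against 18.7, 19.99, 12.1, 22.3 and 18.8 CPM in ConvR mice 1 to 5.

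Other regions were called in 1 section. Near Rnd3 the colon difference was 1.14 ± 0.250 (SE, adjusted p = 0.00285, edgeR), with 11.03 ± 4.195 CPM in GermFree colons and 4.83 ± 1.43 CPM in ConvR colons (SD, n = 7 and 5). Near Intu the ileum difference was -1.95 ± 0.359 (SE, adjusted p = 0.000394, edgeR), and ConvR mice 1 and 3 had 79.1 and 28.1 CPM there. On chromosome 1 (128831022 to 128831654), 54.3 kb from Gm23056 and 239 kb from Cxcr4, the gene of the chemokine receptor for CXCL12 on leukocytes, GermFree jejuna had 3.14 CPM at the lowest, 4.62 at the median and 6.46 at the highest, against 9.47, 8.70, 6.34, 9.96 and 9.27 CPM in ConvR jejuna 1 to 5. This difference of -0.98 ± 0.243 passed (adjusted p = 0.0237, edgeR), and 6 of the 7 GermFree mice were under every ConvR mouse. In other sections the log2 difference was 0.37 in ileum and -0.30 in duodenum and did not pass.

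In duodenum the region 297 kb from Hace1, a ubiquitin ligase gene (chromosome 10, 46008841 to 46010292), had 9.05 ± 1.46 CPM in GermFree mice and 15.4 ± 2.82 CPM in ConvR mice, with all 7 GermFree mice below the ConvR mice. Its log2 difference was -0.70 ± 0.178 (SE, adjusted p = 0.0424, edgeR). The region 1416 kb from Efna5, the gene of the axon guidance ligand ephrin-A5 (chromosome 17, 61186494 to 61187089), had 3.72 ± 1.72 CPM in GermFree mice and 8.76 ± 2.46 CPM in ConvR mice, and a log2 difference of -1.15 ± 0.272 (SE, adjusted p = 0.0170, edgeR). Outside duodenum neither region passed where tested. Near Hace1 the log2 difference was -0.24 in colon, -0.23 in ileum, 0.15 in jejunum and -0.27 in the sums. Near Efna5 it was 0.08 in ileum, -0.14 in jejunum and -0.35 in the sums. The calls near Cxcr4, Hace1 and Efna5 were each lost when any of several single mice was left out, at adjusted p between 0.0505 and 0.123 near Cxcr4 (ConvR mouse 1, 2, 4 or 5, GermFree mouse 5, 6 or 7), between 0.0634 and 0.183 near Hace1 (ConvR mouse 1, 3, 4 or 5, GermFree mouse 1, 3, 4 or 5) and between 0.0569 and 0.185 near Efna5 (ConvR mouse 3 or 5, GermFree mouse 3 or 4). Over the alternatives tried, the differences themselves ran from -1.06 to -0.82 near Cxcr4, from -0.79 to -0.57 near Hace1, from -1.34 to -1.02 near Efna5 and, in colon, from 0.96 to 1.30 near Rnd3.

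The second comparison asked where deserts differed along the intestine. Colon differed from duodenum and from ileum at some regions, and 0 desert regions passed between colon and jejunum (0% of all regions). The fit used all 48 libraries in 8 groups of model and section, and 3952 desert regions passed its count filter. Between colon and duodenum 35 passed, 28 higher and 7 lower in colon, where 1.21% of all regions passed, 0.91% higher and 0.3% lower. Between colon and ileum 71 passed, 50 higher and 21 lower in colon, where 2.19% of all regions passed, 1.48% higher and 0.708% lower. With library totals in place of TMM factors the split was 18 higher of 29 against duodenum and 34 higher of 70 against ileum, so that the excess of higher calls depended on the scaling.

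All mice gave all sections, and with the mouse as a block 77 desert regions passed between colon and duodenum, 56 of them higher (2.44% of all regions passed, 1.75% higher), and 126 between colon and ileum, 88 of them higher (3.6% of all regions, 2.4% higher). Both comparisons share the colon libraries. They had 19 regions in common, which is 54.3% of the calls against duodenum and 26.8% of those against ileum, and together they named 87 regions. All called regions had the same direction of means in GermFree and ConvR mice. They were selected on the average of both models in these same libraries, which favours such agreement. The counts rested on single mice: against duodenum 0 desert regions passed without ConvR mouse 5, 8 without ConvR mouse 1, 10 without ConvR mouse 4, 11 without GermFree mouse 6, 21 and 22 without GermFree mouse 4 and 2, and 65 without ConvR mouse 3. No call against duodenum named below therefore passed without ConvR mouse 5. Against ileum 14 passed without GermFree mouse 4, 20, 37 and 26 without ConvR mouse 2, 4 and 5, and 117 without ConvR mouse 3. How the share of all regions passing moved in the same fits was not computed. These swings therefore cannot be told apart from changes over the whole series.

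Regions higher in colon were wider than the median desert region. They had a median width of 2951 bp against duodenum and 1835 bp against ileum, and 9 of 28 and 11 of 50 were at least 5 kb wide. Those lower in colon had median widths of 2197 and 802 bp against duodenum and ileum. The log2 differences were moderate, from 0.31 to 0.81 for the higher and from -0.82 to -0.39 for the lower regions against duodenum, and from 0.32 to 0.87 and from -1.05 to -0.31 against ileum. Wide regions hold more counts than narrow ones, and the part of width in these calls was not tested.

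The clearest higher region lay on chromosome 10 (98678561 to 98680108), 111 kb from Gm34297 and 235 kb from Atp2b1, which encodes a calcium pump of the plasma membrane. Colons had 6.45 CPM at the lowest, 10.1 at the median and 16.7 at the highest, against 3.41, 6.11 and 9.51 CPM at the lowest, median and highest in duodena and 2.48, 5.07 and 9.11 CPM in ilea (n = 12 each). The log2 difference was 0.81 ± 0.168 against duodenum and 0.80 ± 0.168 against ileum (SE, adjusted p = 0.00820 and 0.00376, edgeR), and in all 12 mice the colon was the higher in both. By model, GermFree colons averaged 11.8 ± 3.75 CPM and ConvR colons 9.22 ± 2.18 CPM, and the ileum means were 5.39 and 6.37 CPM in GermFree and ConvR mice.

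Other higher regions lay near genes of varied function. On chromosome 6 (19961887 to 19962545), 1082 kb from Ankrd7, colon had 6.35 ± 1.81 CPM, against 3.73 ± 1.19 CPM in duodenum (log2 0.81 ± 0.195, SE, adjusted p = 0.0181, edgeR; colon higher in 11 of 12 mice). On chromosome 14 (80501456 to 80504395), 478 kb from Olfm4, a gene that marks crypt base cells in human intestine, colon had 16.4 ± 3.38 CPM, against 11.7 ± 3.38 CPM in duodenum, and was higher in all 12 mice (0.52 ± 0.132, SE, adjusted p = 0.0260, edgeR). On chromosome 12 (9313486 to 9314807), 260 kb from Osr1, a zinc finger gene of kidney and gut mesoderm, colon had 9.08 ± 2.95 CPM, against 5.41 ± 1.97 CPM in ileum (0.76 ± 0.173, SE, adjusted p = 0.00666, edgeR; higher in 8 of 12 mice), and the call was lost without ConvR mouse 5 (adjusted p = 0.0524). The region near Rapgef2 that differed between the models was also higher in colon than in duodenum, with 22.01 ± 6.015 CPM in colon and 15.5 ± 5.59 CPM in duodenum and a log2 difference of 0.51 ± 0.114 (SE, adjusted p = 0.0120, edgeR).

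Among the called regions lower in colon, the largest difference lay on chromosome 18 (53077602 to 53078038), 98.3 kb from Snx2, which encodes a sorting nexin of endosomes. Colons had 0.471 CPM at the lowest, 2.52 at the median and 4.93 at the highest, against 2.37, 5.07 and 6.52 CPM at the lowest, median and highest in ilea, and 10 of 12 mice had the lower value in colon. The log2 difference was -1.05 ± 0.224 (SE, adjusted p = 0.00410, edgeR). The calls against ileum near Snx2 and Atp2b1 passed in each of the 18 alternatives in which they were tested.

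A region 203 kb from Sox9, a transcription factor gene of intestinal crypts and Paneth cells (chromosome 11, 112990219 to 112991045), had 4.30 ± 1.28 CPM in colon and 7.18 ± 2.48 CPM in duodenum, with a log2 difference of -0.78 ± 0.185 (SE, adjusted p = 0.0170, edgeR). The colon was lower in 11 of 12 mice. A region 126 kb from Zfp521, a zinc finger transcription factor gene (chromosome 18, 14098444 to 14099033), was lower in colon than in both duodenum and ileum, with 2.96 ± 1.43 CPM in colon, 5.14 ± 2.62 CPM in ileum and 5.67 ± 2.39 CPM in duodenum (log2 -0.82 against duodenum and -0.80 against ileum, adjusted p = 0.0415 and 0.0373, edgeR). The call against ileum was lost without ConvR mouse 2 or 4 or GermFree mouse 1, 3, 4, 5 or 7 (adjusted p = 0.0507 to 0.260, edgeR). Over the 19 alternatives tested for each, the call against duodenum was lost in 10 and that against ileum in 7. On chromosome 15 (14850850 to 14853046), in the desert between Cdh6 and Cdh9 and 384 kb from any gene, all 12 mice had less captured DNA in colon than in duodenum, with 10.1 ± 2.72 CPM in colon and 14.94 ± 2.997 CPM in duodenum (log2 -0.54 ± 0.133, SE, adjusted p = 0.0206, edgeR).

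**Figure D5:**
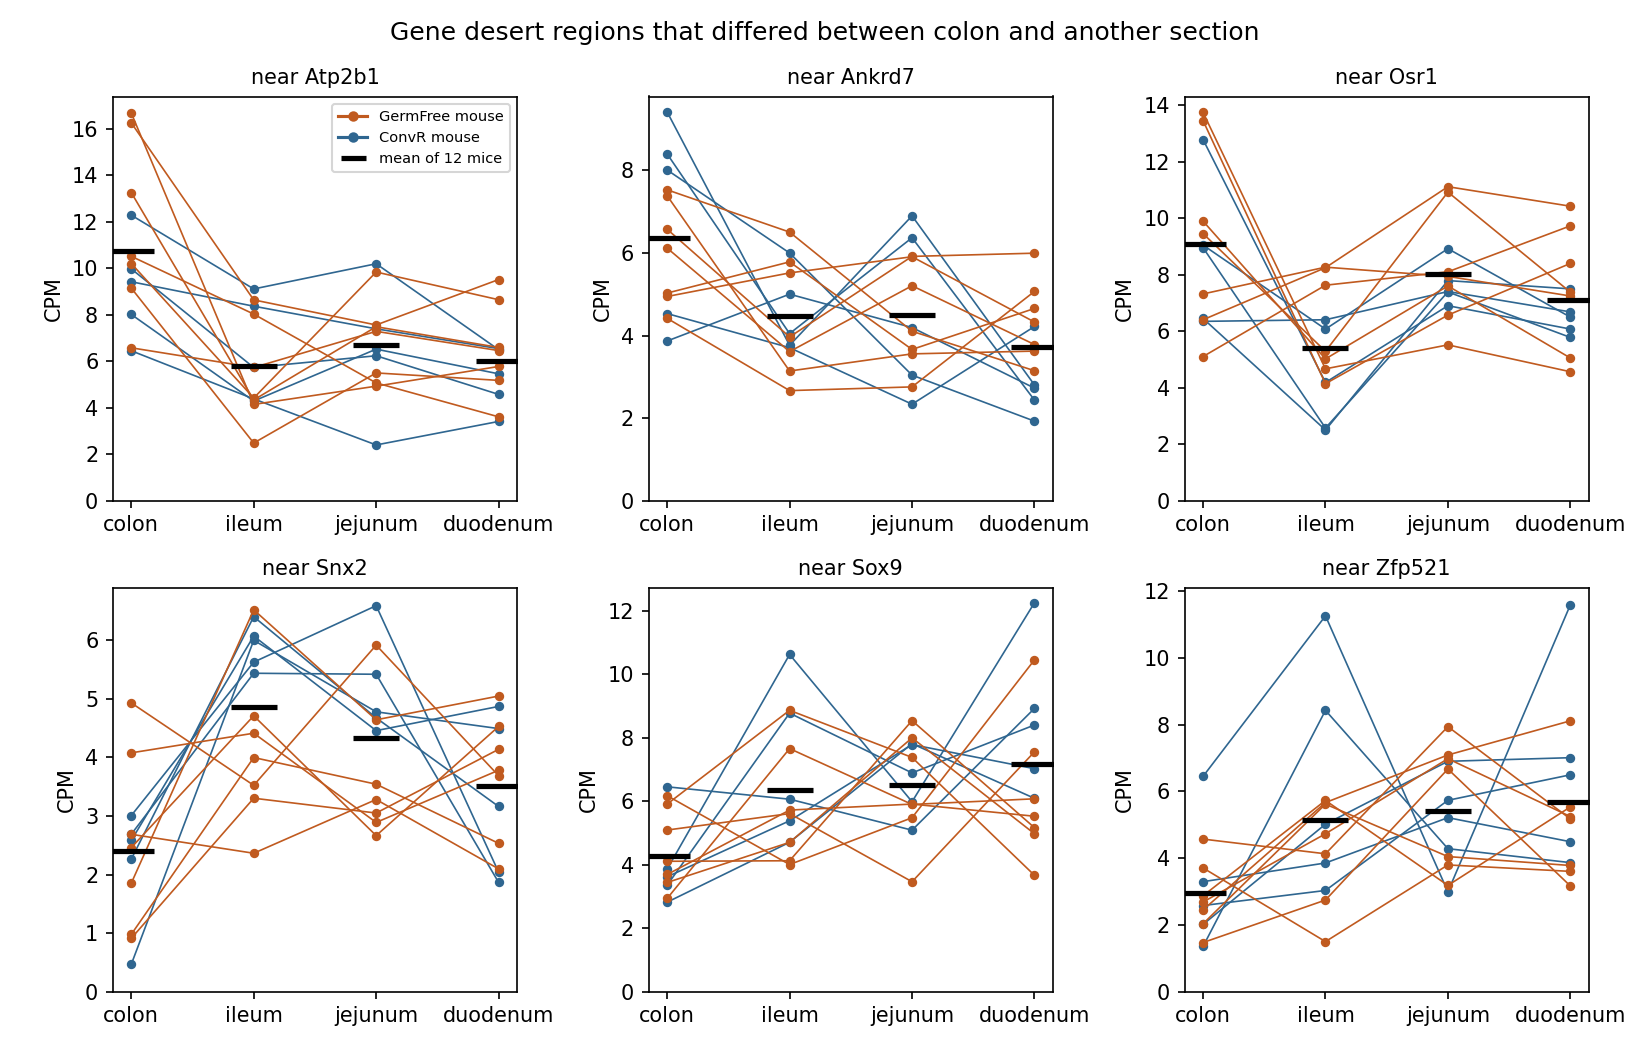
CPM of each GermFree (orange) and ConvR (blue) mouse in colon, ileum, jejunum and duodenum at 6 desert regions, with lines joining the sections of a mouse and black bars at the mean of 12 mice. Near Atp2b1 the colon mean is 10.7 CPM and the duodenum mean 6.02 CPM, whereas near Snx2, Sox9 and Zfp521 the colon means of 2.41, 4.30 and 2.96 CPM are the lowest of the 4 sections.

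Calls sometimes fell into the same stretch. On chromosome 13 (68004508 to 68131299), between BC048507 and Mtrr, which encodes methionine synthase reductase, 9 members covered 63.1 kb and held more captured DNA than any other stretch, 412 CPM in sum. They include the widest desert region of all, 17281 bp from 68024323 to 68041603, with 99.6 ± 12.8 CPM in colon, 79.2 ± 12.9 CPM in ileum, 82.0 ± 13.9 CPM in jejunum and 79.91 ± 13.47 CPM in duodenum (SD, n = 12 each). All 9 were above 0 for colon minus duodenum (median log2 difference 0.26) and colon minus ileum (0.33), and 2 and 5 of them passed against duodenum and ileum. None of the 9 passed between the models, where the median was 0.08.

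In 7 stretches at least 2 members were called in either comparison, and in 4 of them every member was above 0 in both. The stretch between Fam98a and Crim1 was one of these. Its log2 differences ran from 0.35 to 0.42 against duodenum, with 3 calls, and from 0.29 to 0.47 against ileum, with 2 calls. Both members of the stretch at the start of chromosome 16 were called in both comparisons (0.40 and 0.41 against duodenum, 0.33 and 0.38 against ileum). On chromosome 12 between 19149318 and 19193919, 5 members were all above 0, with 1 call against duodenum and 3 against ileum. The desert of 627 kb on chromosome 5 beside Adgrl3, a latrophilin gene, had 8 members, 2 calls against duodenum and 1 against ileum, and 5 and 6 of the 8 were above 0. The stretch between Sall3 and Galr1 on chromosome 18 (82042081 to 82288406) had 9 members, also with 2 calls against duodenum and 1 against ileum, and 5 and 6 of the 9 were above 0. Between Etnk1 and Sox5 on chromosome 6 (143347880 to 143401102), 1 of 5 members was above 0 in each comparison, with 0 calls against duodenum and 2 against ileum, where the values ran from -0.56 to 0.67.

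The other pairs of sections gave little. Between colon and jejunum 0 desert regions passed (0% of all regions), while 333 had an unadjusted p under 0.05 (8.43%, against 8.62% of all regions) and DESeq2 made 0 calls. Blocking on the mouse, 13 passed there, 12 of them higher in colon (0.338% of all regions, 0.299% higher and 0.0386% lower), and without ConvR mouse 3 also 13. The smallest p were found near Olfr161, on chromosome 16, and near Brinp3, on chromosome 1, with log2 differences of 0.38 each. In the small intestine 0 desert regions passed between ileum and duodenum (0.00209% of all regions), ileum and jejunum (0%) or jejunum and duodenum (0%), with an unadjusted p under 0.05 for 188, 259 and 227, and DESeq2 also called 0. These were 4.76%, 6.55% and 5.74% of the desert regions, against 4.75%, 6.76% and 5.41% of all regions. The block gave 3 calls between jejunum and duodenum, all lower in jejunum (0.0156% of all regions, 0.0146% lower), and 0 between ileum and duodenum (0.00209% of all regions) and ileum and jejunum (0.00104% of all regions).

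The dependence of the model difference on the section was tested jointly over the 4 sections. By edgeR 0 of 3952 desert regions passed (0% of all regions), with 190 at an unadjusted p under 0.05 (4.81%, against 4.95% of all regions) and also 0 by DESeq2. Blocking on the mouse, the regions near Intu and Tmpo passed (adjusted p = 0.0301 and 0.0457, 0.0136% of all regions). Near Intu the GermFree minus ConvR difference was -0.47 in colon, -1.95 in ileum, -0.91 in jejunum and -1.30 in duodenum. In the mouse sums ConvR mice 1 and 3 were the highest pair in both regions.

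The genes that flank deserts were grouped by 3 lists, with each region assigned to its nearest protein-coding gene. Such an assignment names a neighbour and does not show that the region acts on it. Developmental regulators, the transcription factor and signalling genes often found beside deserts, were nearest to 263 members at 48 of 76 matched genes. Between the models 0 of them were higher and 1, near Bcl11a, lower in GermFree mice, and their median log2 difference was -0.01 (0.01 in all desert regions). Between colon and duodenum 0 were higher and 2 lower in colon, near Sox9 and Zfp521, with a median of 0.00, and between colon and ileum 0 were higher and 1 lower, near Zfp521, with a median of -0.03. In all desert regions the medians of these section comparisons were 0.01, and 0.886% passed against duodenum and 1.8% against ileum (1.21% and 2.19% of all regions). Counts of 2 and 1 among 263 are too few to set apart from these shares.

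Genes of synaptic adhesion and axon guidance, many of them very long and isolated, were nearest to 317 members at 61 of 91 genes. Between the models 0 passed in either direction, with a median log2 difference of 0.01. Between colon and duodenum 3 of 316 tested were higher in colon, near the contactin-associated protein gene Cntnap5a (0.37) and at 2 neighbouring regions near Adgrl3 (0.45 and 0.36), and 1 was lower, near Cdh6. Between colon and ileum 5 were higher, near Flrt2, Cntnap5a, Ncam2, the netrin receptor gene Dcc and Adgrl3 (0.44, 0.85, 0.72, 0.78 and 0.35), and 1 lower, near Adgrl2 (-0.54), with a median of 0.04. The counts of 4 and 6 among 316 lie near the shares of all desert regions, 0.886% and 1.8%. Immune genes were nearest to 65 members at 14 of 63 genes, and 0 of these passed in the mouse sums, between colon and duodenum or between colon and ileum. Their median in the sums was 0.04 for GermFree minus ConvR, and the region near Cxcr4 passed in jejunum.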

How the data were processed

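Methylated DNA was captured with the MethylMiner kit from sonicated DNA and sequenced as single 100-bp reads, per the labels' protocols. Per the submitters' processing notes, the tools were cutadapt 1.4.2, Trim Galore 0.3.7, featureCounts and MACS2, and the build mm10. Not given in the sources used here are the aligner, how duplicate and multiply mapped reads were treated and which libraries were pooled to call peaks. The deposited table holds whole-number read counts for 95882 regions in 48 libraries, not normalized, and the authors' peak list gives each region a position and a score. The labels mention no molecular identifiers, so counts may include copies of one molecule. Library totals ran between 1007560 and 3033782 counts.

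Distances to gene bodies were taken from the RefSeq table of GRCm38.p6, which is mm10. Counts were summed over the 4 sections of a mouse or used by section, filtered with filterByExpr, scaled by TMM and tested with edgeR 4.0.16 (R 4.3.3, limma 3.58.1) by its quasi-likelihood test over all regions, with Benjamini-Hochberg adjustment and a threshold of 0.05. Log2 differences carry standard errors, derived from the difference and the F statistic of its test, and p-values are two-sided. The test shares its estimate of spread in part across regions. Its standard errors and p-values therefore do not measure the spread between mice at a single region, and can understate it where mice differ widely. A pseudocount of 0.5 CPM was used for the spread between mice. DESeq2 1.42.0, other scalings and filters, left-out mice and blocks were alternatives. Tables were made with Python 3.11.15, pandas 2.3.3 and Matplotlib 3.10.9.

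Named regions were, in each comparison, up to 10 called desert regions in each direction with the largest log2 difference and a mean of at least 1 CPM, 1 for each stretch of desert, or the 5 with the smallest p where fewer than 5 passed. To these were added the 5 with the highest level, level per kb, width, distance to a gene and spread between mice. The other regions of the stretches described, the list members called and the rest of the 9 called regions were named after their values were seen. The members, the gene lists and the rules were chosen with earlier results of these data known. The same animal gave all sections, so the mouse pairs them. Deviations of a mouse's sections correlated with a median r of 0.0168 over 72 pairs of libraries. No sequence of the regions was examined.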

Additional observations from a re-analysis of the deposited data

Results flagged for a closer look

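Among 26 groups of 4 to 10 samples examined, 2 held a mouse far from the others of its group, and chance sets apart about 1 group in 20. Both were GermFree mouse 2. At the desert region near Bcl11a on chromosome 11 it had 21.2 CPM, where the other 6 GermFree mice had 4.67 to 10.4 CPM. At the desert region near Tmpo on chromosome 10 it had 11.8 CPM, where the other 6 had 3.74 to 5.64 CPM. These are the regions at which ConvR mice 1 and 3 were highest of all, and GermFree mouse 2 had the third-lowest total count, 7002133.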

How the results depend on the processing

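Counts of called desert regions depended on several choices. Where the counts were fitted again, the share of all regions passing was computed only for the block on the mouse. The other changes, those without single mice included, cannot be called particular to deserts. GermFree minus ConvR gave 9 calls in the sums, 6 in duodenum, 2 in jejunum, 3 in ileum and 3 in colon. With the distance limit at 100 kb these were 2 (sums), 3 (duodenum), 1 (jejunum) and 1 (colon). DESeq2 gave 4, 0, 0, 0 and 1 in that order. Regions with a score at or above the median gave 5 in the sums, and autosomes alone gave 5 in colon. Without ConvR mice 1 and 3, an alternative chosen after seeing the data, there was 1 call in duodenum and 0 in ileum and colon, and the values in jejunum near Intu and Tmpo changed sign to 0.59 and 0.10 (adjusted p = 0.999 each, edgeR). Mouse numbers gave no sign of pairing the models (median r of -0.072 over 5 pairs, 0 best with their own number). On the same measure 2 sections of the same mouse reached only a median r of 0.0168, so this check could not exclude pairing. A replicate block on the mouse number gave 5 calls in the sums. A block on a code in the titles, which some GermFree and ConvR mice shared, gave 2 in duodenum, 1 in jejunum and 1 in colon.

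Leaving out 1 mouse gave 4 to 13 calls in the sums, 2 to 10 in duodenum, 1 to 3 in jejunum, 2 to 9 in ileum and 2 to 9 in colon. It gave 0 to 65 for colon minus duodenum, 0 to 13 for colon minus jejunum and 14 to 117 for colon minus ileum, and a share of counts of 3.154% to 3.163%.

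Colon minus duodenum had 35 calls and colon minus ileum 71. At 100 kb these were 12 and 17. DESeq2 gave 27 for colon minus duodenum, 19 of them among the 35, and 23 for colon minus ileum, all among the 71. Without ConvR mice 1 and 3 there were 4 for colon minus jejunum and 110 for colon minus ileum. A replicate block on the mouse gave 77 for colon minus duodenum, 13 for colon minus jejunum, 126 for colon minus ileum, 3 for jejunum minus duodenum and 2 for the joint test over sections. The share of counts, 3.158%, was 2.935% without the top 1% of desert regions and 0.9654% at 100 kb. The cause of these changes was not tested, apart from the fewer regions that the 100 kb limit and the score limit leave. For named regions, 1440 of the alternative values kept their side of the threshold and, where the test has one, their direction. A further 330 lost the call, 32 gained it and 2 changed sign. These include regions never called, such as those of the small intestine pairs and the joint test, which mostly stayed uncalled. Only called regions could lose a call, so the 1440 do not measure how well the calls held. Low depth, with medians of 6 to 18 counts per library, limits what single desert regions can show.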
